A study of Mus musculus with 8 samples.

Results

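The genes of the TGF-beta pathway core were compared between mammary epithelial cells that carried a mutant ShcA and cells that carried wild-type ShcA. The members were all genes with a non-control probe whose symbol on the array was a TGF-beta ligand, type I, II or III receptor, activin receptor, inhibin or activin subunit, growth differentiation factor, latent TGF-beta binding protein, Smad, Smurf, or one of the nuclear repressors and named partners Ski, Skil, Tgif1, Tgif2, Tgfbi, Tgfb1i1, Pmepa1 and Tsc22d1. This gave 49 of the 30165 genes on the array, read by 80 of its 39429 probes. Of these, 39 passed the filter on dim probes and were tested, and 10 did not.

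The 8 arrays were 4 of cells labelled R175Q and 4 of cells labelled wild-type, both made from NMuMG-NT2197, an immortalized mouse mammary gland line that carries an activated ErbB2 (Neu) receptor. The wild-type arrays are titled nT. Each group had received a pMSCV/hygro vector, with a ShcA cDNA bearing the arginine-to-glutamine change R175Q or with the unchanged ShcA cDNA. ShcA is an adaptor protein that couples receptor tyrosine kinases to downstream signalling, and the changed residue lies in its PTB domain, which binds phosphotyrosine. The comparison, R175Q minus wild-type, therefore asks what differs when ErbB2-transformed cells carry the PTB-domain mutant in place of the normal adaptor. No array of cells with an empty vector was used here, and the labels do not say whether the lines were clones or pools, whether the cells kept their own ShcA, or whether the 4 arrays of a group came from separate cultures. The p-values therefore measure the spread between these arrays, which may be technical, and the number of arrays limits the precision.

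RNA labelled with Cy3 was hybridized with a common reference in Cy5, and each value gives the cells over the reference on a log2 scale, and a difference between groups is a difference of log2 ratios. On each array 53.7% to 63.0% of the non-control spots were well above background in Cy3, and 0 spots were saturated. Shc1, the gene of ShcA, had a mean log2 ratio of 1.00 in R175Q and 1.11 in wild-type, a difference of -0.11 ± 0.10 (SE; adjusted p = 0.531), and whether the probe reads the vector's transcript was not examined. All 10 measured markers of epithelial and luminal cells, of 12 listed, were well above background on all 8 arrays. Of these, 4 (Krt7, Muc1, Krt19 and Krt8) were lower in R175Q and 0 higher. Krt7 and Krt19 were still past the threshold when limma fitted the background to all spots. The other 6 were called neither higher nor lower. Their differences were -0.26 for Epcam, -0.20 for Krt18, -0.10 for Cldn7, -0.07 for Elf3, -4.98e-05 for Cdh1 and 0.13 for Esrp1. Krt7 had the largest difference of the 10, at -1.89. The mean log2 ratio of all 10 was -0.00442 to 0.0946 in R175Q and 0.334 to 0.431 in wild-type. The arrays lay on 4 slides; R175Q 1 was alone on slide 1, and slides 2, 3 and 4 each held both groups, so differences within those slides are given beside the pooled ones.

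TGF-beta ligands are secreted in a latent complex with their own propeptide and a latent TGF-beta binding protein, and must be released before they bind. The ligand brings the type II receptor Tgfbr2 and the type I receptor Tgfbr1 together, often with help from the co-receptor Tgfbr3, and the type I receptor phosphorylates Smad2 and Smad3, which enter the nucleus with Smad4. In mammary epithelium the pathway is known both for arresting growth and for driving the change from epithelial to mesenchymal form, and NMuMG cells are a much used model of that change.

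Of the 39 measured members, 9 differed at an adjusted p under 0.05 in limma's moderated test, with Benjamini-Hochberg adjustment over all 17316 genes tested, and 6 of them were higher and 3 lower in R175Q. The share over all genes was 19.4%, with 9.69% higher and 9.75% lower, so 9 of 39 (23.1%) was near the background of the whole array. The groups did not overlap for 11 members, against 23.9% of all genes. The median difference of the 39 was 0.07, beside -0.01 over all genes. The 6 that rose were Tgfbr3, Tgfbi, Tgfb1i1, Tgfb3, Ltbp2 and Tgfb1, by 1.19- to 1.89-fold, and the 3 that fell were Tgfb2, Ltbp3 and Smad3, by 1.20- to 1.35-fold. All 9 were well above background on all 8 arrays.

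These calls rest on how the scanner's background was removed. The background was read from the negative control spots; when limma instead fitted it to all spots of each array, 876 genes (5.06%) passed, and of the members only Ltbp3 and Smad3. Under that setting Tgfb1i1 and Ltbp2 changed sign, to -0.31 (adjusted p = 0.715) and -0.24 (adjusted p = 0.743). The other 7 kept their direction there. The fitted background had means between -690 and -0.369 intensity units in Cy3, where the negative control spots themselves averaged 13.6 to 23.7. With no background correction, with the scanner software's own ratio, and with the authors' deposited value table, the same 9 members passed, 6 higher and 3 lower.

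**Figure D1:**
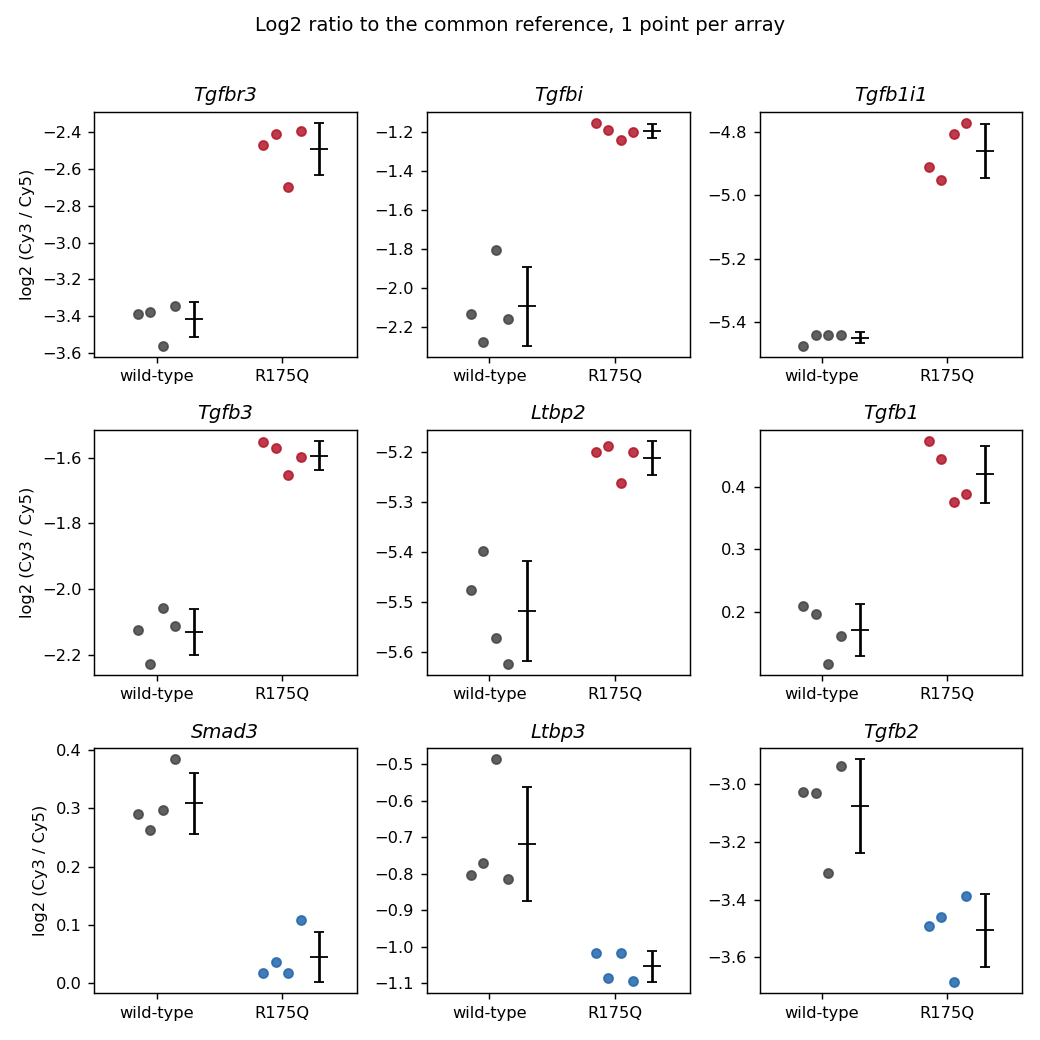
Log2 ratio of Cy3 over Cy5 (vertical axes, each with its own range) of the 9 members past the threshold, with 1 point per array, 4 wild-type arrays in grey and 4 R175Q arrays in colour (red where higher, blue where lower); the bar beside each group is its mean and SD. In every panel the groups are apart, by a gap of 0.08 for Tgfb2 to 0.65 for Tgfbr3; with the background fitted to all spots, the differences of Tgfb1i1 and Ltbp2 changed sign.

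All 3 TGF-beta ligands differed, 2 upwards and 1 downwards. Tgfb1, the ligand most widely made by epithelial and immune cells, rose 1.19-fold; Tgfb3 rose 1.45-fold; and Tgfb2 fell 1.35-fold. The log2 ratios of Tgfb1 were 0.47, 0.44, 0.38 and 0.39 in R175Q 1 to 4 and 0.21, 0.20, 0.12 and 0.16 in wild-type 1 to 4. Every R175Q array was above every wild-type array, and the difference was 0.25 ± 0.05 (SE; 95% interval 0.13 to 0.36; adjusted p = 0.00836). This probe (chr7:26489877-26489936 in mm9) was spotted 10 times on each array, and the SD over its spots was 0.0125 to 0.0342. That SD is a spread within an array and does not measure the spread between arrays. Within slides 2, 3 and 4 it was 0.23, 0.22 and 0.23; with slide as a fixed block the adjusted p was 0.0515, and with the fitted background the difference was 0.21 (adjusted p = 0.108).

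The values of Tgfb3 were -1.55, -1.57, -1.65 and -1.60 in R175Q 1 to 4 and -2.12, -2.23, -2.06 and -2.11 in wild-type 1 to 4. The R175Q arrays lay close together and well above the wild-type ones, with a difference of 0.54 ± 0.06 (SE; 95% interval 0.41 to 0.66; adjusted p = 0.000146). Its probe (chr12:87397804-87397863 in mm9) was also spotted 10 times, with an SD over spots of 0.0161 to 0.0329. The differences within slides were 0.55, 0.49 and 0.51, and with the fitted background 0.36 (adjusted p = 0.0716).

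Tgfb2, a ligand that depends more than the other two on the co-receptor Tgfbr3 to bind, moved the other way. The log2 ratios were -3.49, -3.46, -3.69 and -3.39 in R175Q 1 to 4 and -3.03, -3.03, -3.31 and -2.94 in wild-type 1 to 4. Replicate 3 was the lowest array of both groups, and the gap between the groups was 0.08. Both arrays of replicate 3 were on slide 3, as was wild-type 2, which was not low at -3.03. The difference was -0.43 ± 0.09 (SE; 95% interval -0.64 to -0.22; adjusted p = 0.00943), and -0.44, -0.52 and -0.45 within slides. This probe lies at chr1:188449333-188449392 in mm9. A second, dimmer probe gave -0.17 ± 0.14 (SE; adjusted p = 0.451), and the mean of both gave -0.30 (adjusted p = 0.0584), so the call rests on the brighter probe. With the fitted background the difference was -0.56 (adjusted p = 0.343).

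The promoters of Tgfb1 and Tgfb2 are shown to set a ligand that rose beside the one that fell. They are the 250 bases before the annotated start in RefSeq's GRCm38.p6 annotation, 5′ to 3′ on the gene's strand, at chr7:25686752-25687001 (plus) for Tgfb1 and chr1:186705990-186706239 (minus) for Tgfb2. Capitals mark matches, on either strand and with no overlap between motifs, to 4 motifs. The core of a Smad box was searched as CAGAC. An AP-1 site was searched as TGANTCA. The GC box, which Sp1 binds, was searched as GGGCGG. The TATA box was searched as TATAAA.
Tgfb1: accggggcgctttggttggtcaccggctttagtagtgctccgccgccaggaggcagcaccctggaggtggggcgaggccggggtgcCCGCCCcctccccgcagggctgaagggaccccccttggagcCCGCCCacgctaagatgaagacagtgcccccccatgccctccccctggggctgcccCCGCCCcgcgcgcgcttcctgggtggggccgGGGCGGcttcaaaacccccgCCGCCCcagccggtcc
Tgfb2: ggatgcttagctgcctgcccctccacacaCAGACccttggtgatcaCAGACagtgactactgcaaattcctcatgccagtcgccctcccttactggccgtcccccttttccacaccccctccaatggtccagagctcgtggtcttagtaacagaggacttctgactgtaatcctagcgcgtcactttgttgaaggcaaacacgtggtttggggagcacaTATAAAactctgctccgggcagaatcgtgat
Tgfb1 held 5 GC boxes and no match to CAGAC, and 75.2% of its bases were G or C. Tgfb2 held CAGAC at 2 places, starting 221 and 204 bases before the start, and a TATA box 31 bases before it, and no GC box, with 53.6% G or C. Over all 32851 promoters of the table, in windows of the same length, 42.2% held the Smad box core, 32.7% the GC box, 12.4% the TATA box and 6.75% the AP-1 motif, and the median G or C content was 52.4%. Promoters of 6 of the 9 members were found in the table, and those of Tgfb3, Tgfbr3 and Tgfb1i1 were not printed. A match is a description of the letters, not evidence of a site.

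The other measured ligands among the members did not pass the threshold in the fit without a block. Inhba and Inhbb, whose products form the activins A and B, had differences of 0.18 ± 0.16 (SE) and -0.16 ± 0.08 (SE). The growth differentiation factors Gdf1, Gdf3, Gdf9, Gdf11 and Gdf15 ranged from -0.26 for Gdf11 (adjusted p = 0.143) to 0.12 for Gdf9 (adjusted p = 0.350). Gdf11, which is related to myostatin, was -0.35, -0.17 and -0.58 within slides 2, 3 and 4. It was called lower with slide as a fixed block, with Cy3 alone and with array weights, and was 0.03 with the fitted background. Gdf15, a stress-induced cytokine, varied most within the groups. Its log2 ratios were 1.46, 1.48, 2.46 and 1.81 in R175Q 1 to 4 and 1.76, 1.17, 2.84 and 1.82 in wild-type 1 to 4, highest in replicate 3 of both groups, so the groups overlapped widely. Inha, Inhbc, Gdf2, Gdf6, Gdf7 and Gdf10 were well above background on 0 arrays, Gdf5 on 1 wild-type array and Inhbe on 2 R175Q arrays, and these were not tested.

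The latent TGF-beta binding proteins, which store and present the latent ligand in the extracellular matrix, split. Ltbp3, which binds latent TGF-beta and assists its secretion, fell 1.26-fold. Its log2 ratios were -1.02, -1.09, -1.02 and -1.09 in R175Q 1 to 4 and -0.80, -0.77, -0.49 and -0.82 in wild-type 1 to 4. The R175Q arrays were nearly alike, while wild-type 3 stood above the other wild-type arrays. The difference was -0.34 ± 0.08 (SE; 95% interval -0.51 to -0.16; adjusted p = 0.0143), with -0.28, -0.39 and -0.28 within slides. A second probe gave -0.32 ± 0.07 (SE; adjusted p = 0.0140), and with the fitted background the first gave -0.35 (adjusted p = 0.0426). The first probe lies at chr19:5758082-5758141 in mm9.

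Ltbp2, a family member that associates with elastic fibres and, unlike the others, does not bind latent TGF-beta, rose 1.24-fold. Its values were -5.20, -5.19, -5.26 and -5.20 in R175Q 1 to 4 and -5.47, -5.40, -5.57 and -5.62 in wild-type 1 to 4. The groups did not overlap, and the difference was 0.30 ± 0.06 (SE; 95% interval 0.17 to 0.44; adjusted p = 0.00707), with 0.29, 0.22 and 0.42 within slides. The transcript was far below the reference in both groups, and its difference was -0.24 with the fitted background and 0.23 (adjusted p = 0.0645) after scaling between arrays. The probe lies at chr12:86124167-86124226 in mm9. Of the remaining pair, Ltbp1 had a difference of 0.02 ± 0.08 (SE). Ltbp4 had one of -0.22 ± 0.08 (SE; adjusted p = 0.0909) although its groups did not overlap, and its other 2 probes gave -0.25 and -0.15.

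Among the receptors, the co-receptor changed and the signalling receptors did not pass the threshold. Tgfbr3, or betaglycan, a membrane proteoglycan that presents ligand to Tgfbr2 and can be shed as a soluble trap, rose 1.89-fold, the largest change among the members. On the arrays it read -2.47, -2.41, -2.70 and -2.40 in R175Q 1 to 4 and -3.39, -3.38, -3.56 and -3.34 in wild-type 1 to 4. The lowest R175Q array was 0.65 above the highest wild-type array. The difference was 0.92 ± 0.08 (SE; 95% interval 0.74 to 1.10; adjusted p = 4.65e-05), with 0.98, 0.77 and 0.95 within slides, and 0.57 (adjusted p = 0.0732) with the fitted background. A single probe read it, at chr5:107535818-107535877 in mm9.

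Tgfbr1, the type I kinase, had log2 ratios of 3.27, 3.38, 3.14 and 3.22 in R175Q 1 to 4 and 3.55, 3.03, 3.00 and 3.53 in wild-type 1 to 4. The R175Q values lay inside the wider wild-type range, and the difference was -0.02 ± 0.13 (SE; 95% interval -0.32 to 0.27; adjusted p = 0.925), with a sign that turned under several settings. Tgfbr2, the type II kinase, had -1.19, -1.18, -1.36 and -1.19 in R175Q 1 to 4 and -1.32, -1.29, -1.44 and -1.37 in wild-type 1 to 4. Its probes disagreed. The brighter one gave 0.12 ± 0.06 (SE; 95% interval -0.02 to 0.26; adjusted p = 0.212). The other gave -0.22 ± 0.06 (SE; adjusted p = 0.0283), with -1.25, -1.22, -1.33 and -1.25 in R175Q and -1.11, -1.03, -1.11 and -0.93 in wild-type. No direction is therefore given for Tgfbr2.

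The 5 measured receptors for activins and related ligands, Acvr1, Acvr1b, Acvr2a, Acvr2b and Acvrl1, ranged from -0.19 for Acvr1b (adjusted p = 0.196) to 0.16 for Acvr1 (adjusted p = 0.154). Acvr1c was above background on 0 arrays and was not tested.

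**Figure D2:**
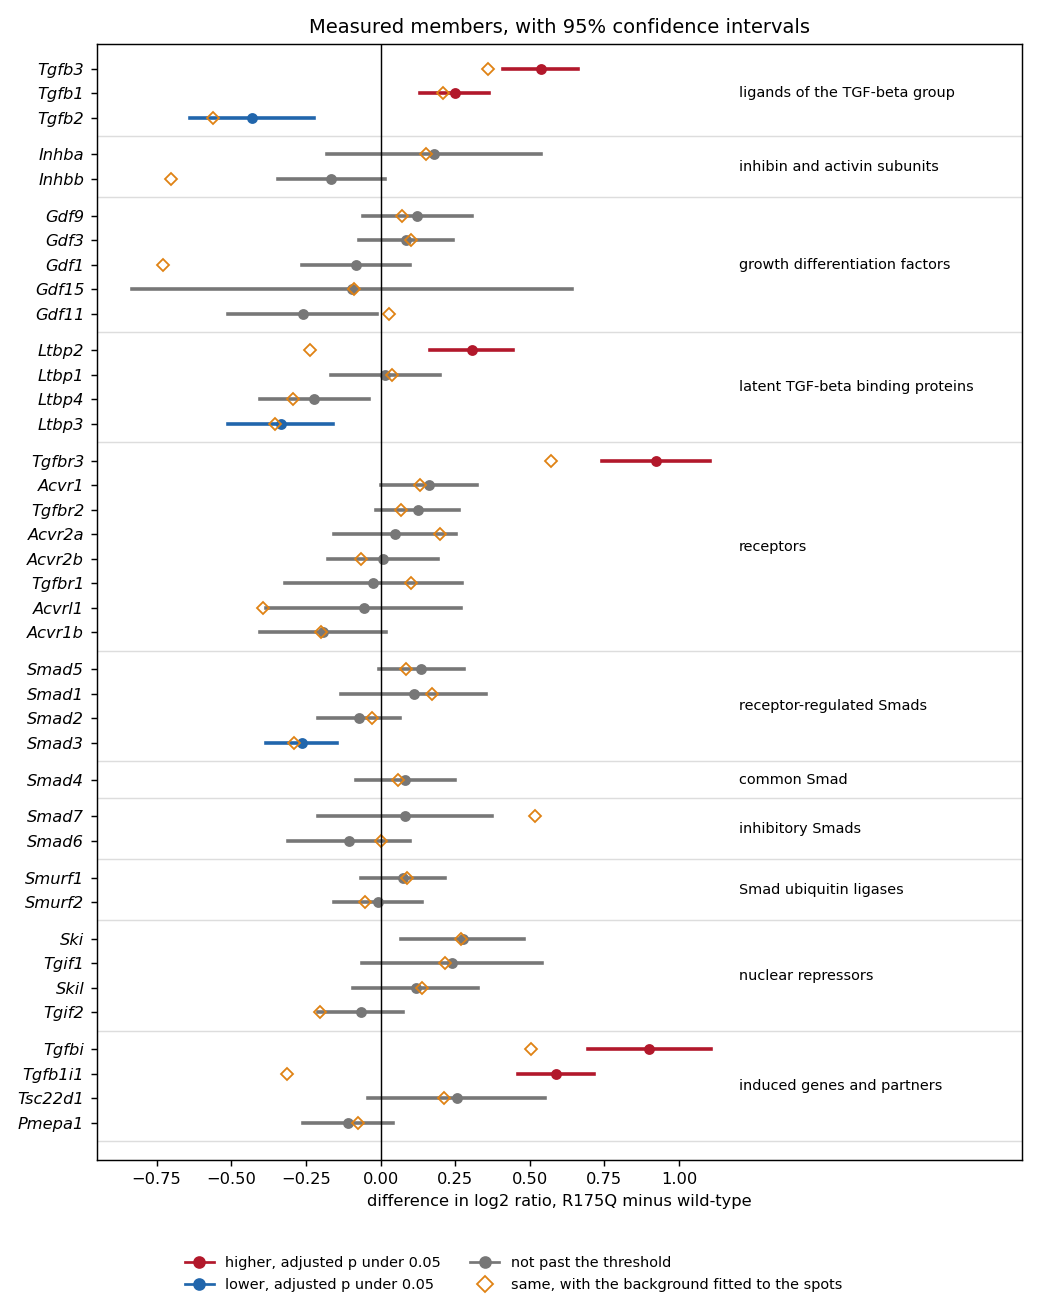
Difference in log2 ratio, R175Q minus wild-type, of the 39 measured members (horizontal axis), grouped by role, as circles with 95% confidence intervals, red or blue where the adjusted p was under 0.05; open diamonds give the same difference with the background fitted to all spots of each array. The diamonds of Tgfb1i1 and Ltbp2 lie on the other side of 0 from their circles, and those of Tgfbr3 and Tgfbi lie at 0.57 and 0.50 against 0.92 and 0.90.

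Of the receptor-regulated Smads, Smad3 alone passed the threshold, and it fell 1.20-fold. Smad3 carries the TGF-beta and activin signal and, unlike the main form of Smad2, binds DNA itself. The arrays gave log2 ratios of 0.02, 0.04, 0.02 and 0.11 in R175Q 1 to 4 and 0.29, 0.26, 0.30 and 0.38 in wild-type 1 to 4. The spread within each group was small, with SDs of 0.04 and 0.05, against a gap of 0.16 between the groups. The difference was -0.26 ± 0.05 (SE; 95% interval -0.38 to -0.15; adjusted p = 0.00672), with -0.25, -0.26 and -0.28 within slides. A second probe gave -0.38 ± 0.10 (SE; adjusted p = 0.0221). With the fitted background the first gave -0.29 (adjusted p = 0.0139), and it passed the threshold under every setting except the fitted background with slide as a fixed block. The first probe lies at chr9:63494574-63494633 in mm9.

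The promoter of Smad3 is shown for comparison with the ligands, as the 250 bases before the start at chr9:63757995-63758244 (minus) in GRCm38.p6, with capitals for the same motifs.
Smad3: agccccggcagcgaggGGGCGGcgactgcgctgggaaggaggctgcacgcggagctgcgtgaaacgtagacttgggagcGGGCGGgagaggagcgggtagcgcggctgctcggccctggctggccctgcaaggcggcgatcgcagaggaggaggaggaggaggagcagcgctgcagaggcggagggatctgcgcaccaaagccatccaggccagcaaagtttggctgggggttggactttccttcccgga
It held 2 GC boxes, starting 234 and 171 bases before the start, no CAGAC and no TATA box, and 69.2% G or C.

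Smad2, the other Smad of the TGF-beta branch, had log2 ratios of 1.62, 1.64, 1.55 and 1.58 in R175Q 1 to 4 and 1.77, 1.61, 1.56 and 1.73 in wild-type 1 to 4. The groups overlapped, and the difference was -0.07 ± 0.06 (SE; 95% interval -0.21 to 0.07; adjusted p = 0.488). Smad4, the partner shared by all receptor-regulated Smads, had 1.28, 1.44, 1.37 and 1.49 in R175Q 1 to 4 and 1.41, 1.18, 1.25 and 1.42 in wild-type 1 to 4. Its groups overlapped too, with a difference of 0.08 ± 0.07 (SE; 95% interval -0.08 to 0.25; adjusted p = 0.513). Smad7, the inhibitory Smad that TGF-beta itself induces, had 3.30, 3.40, 3.45 and 3.32 in R175Q 1 to 4 and 3.54, 2.85, 3.42 and 3.33 in wild-type 1 to 4. One array, wild-type 2, lay below all others, and the difference of 0.08 ± 0.13 (SE; 95% interval -0.21 to 0.37; adjusted p = 0.733) became -0.06 without it.

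Smad1 and Smad5, which act for bone morphogenetic proteins, had differences of 0.11 ± 0.11 and 0.14 ± 0.06 (SE), and the inhibitory Smad6 had -0.11 ± 0.09 (SE). Smad9 was above background on 0 arrays and was not tested. The ubiquitin ligases Smurf1 and Smurf2, which target Smads and receptors for degradation, had 0.07 ± 0.06 and -0.01 ± 0.07 (SE). Further, dimmer probes of Smurf2 gave -0.17 and -0.12 (adjusted p = 0.0604 and 0.304 in limma's test, each probe fitted on its own). None of these 5 passed the threshold.

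The nuclear repressors of Smad-driven transcription were not past the threshold either. Ski came nearest. Log2 ratios of Ski were 1.07, 1.11, 0.90 and 0.96 in R175Q 1 to 4 and 0.88, 0.64, 0.53 and 0.89 in wild-type 1 to 4, so the groups did not overlap but nearly touched. The difference was 0.27 ± 0.09 (SE; adjusted p = 0.0642), and Ski passed the threshold under 5 of the 27 settings that used 1 value per gene. Skil, Tgif1 and Tgif2 had differences of 0.12, 0.24 and -0.07, with adjusted p of 0.450, 0.271 and 0.535.

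Of the induced genes and partners, Tgfbi and Tgfb1i1 rose. Tgfbi encodes a secreted matrix protein first cloned as a TGF-beta-induced gene, and rose 1.87-fold. Its log2 ratios were -1.15, -1.19, -1.24 and -1.20 in R175Q 1 to 4 and -2.13, -2.28, -1.81 and -2.16 in wild-type 1 to 4. The R175Q arrays lay close together, and the gap to the highest wild-type array, wild-type 3, was 0.57. The difference was 0.90 ± 0.09 (SE; 95% interval 0.69 to 1.11; adjusted p = 0.000126), with 0.95, 0.81 and 0.96 within slides and 0.50 (adjusted p = 0.119) with the fitted background. The probe lies at chr13:56740460-56740519 in mm9.

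Tgfbi is shown as the member named for its response to TGF-beta, by the 250 bases before its start at chr13:56609336-56609585 (plus) in GRCm38.p6, with capitals as before.
Tgfbi: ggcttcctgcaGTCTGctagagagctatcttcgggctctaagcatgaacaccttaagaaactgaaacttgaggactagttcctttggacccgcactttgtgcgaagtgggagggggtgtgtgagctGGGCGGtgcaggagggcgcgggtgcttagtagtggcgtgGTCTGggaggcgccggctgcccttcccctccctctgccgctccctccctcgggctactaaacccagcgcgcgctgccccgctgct
It held CAGAC, read on the other strand, at 2 places starting 239 and 85 bases before the start, and a GC box 124 bases before it, with 62.4% G or C.

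Tgfb1i1 encodes Hic-5, a focal adhesion protein that also acts as a transcriptional co-activator, and rose 1.50-fold. Its log2 ratios were -4.91, -4.95, -4.81 and -4.77 in R175Q 1 to 4 and -5.47, -5.44, -5.44 and -5.44 in wild-type 1 to 4. The wild-type arrays were almost equal, and the lowest R175Q array was 0.49 above the highest of them. The difference was 0.59 ± 0.06 (SE; 95% interval 0.46 to 0.71; adjusted p = 8.97e-05), with 0.52, 0.63 and 0.67 within slides. As for Ltbp2, the transcript was far below the reference, and with the fitted background the difference was -0.31. The probe lies at chr7:135397091-135397150 in mm9.

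Tsc22d1, a leucine zipper protein induced by TGF-beta, was read by 2 probes that gave the same sign at different size. The brighter gave 0.25 ± 0.13 (SE; adjusted p = 0.230), and Tsc22d1 passed under 5 of the 27 settings that used 1 value per gene. The other gave 0.60 ± 0.12 (SE; adjusted p = 0.00629), with 1.95, 2.04, 2.24 and 2.18 in R175Q 1 to 4 and 1.64, 1.14, 1.54 and 1.68 in wild-type 1 to 4. Pmepa1, a TGF-beta-induced inhibitor of Smad activation, had a difference of -0.11 ± 0.07 (SE; adjusted p = 0.313). With each probe fitted on its own, 18.6% of all probes tested passed, and 7 probes of members were higher and 6 lower. The members had 80 probes, not all of them tested, so these counts are not a result about the members.

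**Figure D3:**
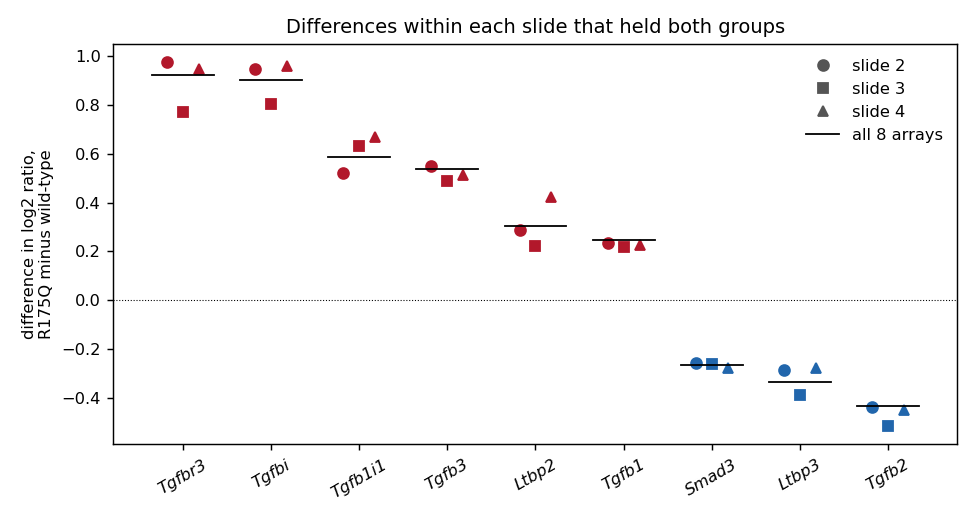
Difference in log2 ratio, R175Q minus wild-type, of the 9 members past the threshold within each slide that held both groups (circles slide 2, squares slide 3, triangles slide 4), beside the difference over all 8 arrays (black line). Every within-slide value has the sign of the pooled one, from 0.77 to 0.98 for Tgfbr3 to -0.52 to -0.44 for Tgfb2. All values use the control-spot background. With the fitted background the pooled differences of Tgfb1i1 and Ltbp2 changed sign, and differences within slides were not computed.

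Other genes of the pathway were read from 4 lists chosen with earlier results of these data known. Of 16 measured genes that store or activate latent TGF-beta, 5 were higher and 2 lower in R175Q, and the median difference was 0.11, beside -0.01 over all genes. The called share was 43.8%, beside 19.4% over all genes. Mmp2, a gelatinase that can cleave the latent complex, rose 3.54-fold, from log2 ratios of -4.92 to -4.59 in wild-type to -3.11 to -2.73 in R175Q (difference 1.82 ± 0.10, SE; adjusted p = 2.91e-06). Thbs1, or thrombospondin 1, which activates latent TGF-beta, rose 2.25-fold (1.17 ± 0.14, SE; adjusted p = 0.000351). Igf2r, which holds the latent complex at the cell surface, rose 1.78-fold (0.83 ± 0.08, SE; adjusted p = 7.46e-05). Itgb6, the beta subunit of the epithelial integrin that activates TGF-beta, moved the other way and fell 1.74-fold (-0.80 ± 0.16, SE; adjusted p = 0.00593), and was above background on 6 arrays. Its call was lost with the fitted background, at -0.41 (adjusted p = 0.139).

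Dcn, or decorin, a proteoglycan that binds TGF-beta, rose 1.65-fold (0.73 ± 0.14, SE; adjusted p = 0.00451), and Plau, the urokinase that generates plasmin, rose 1.37-fold (0.46 ± 0.09, SE; adjusted p = 0.00622). With the fitted background Mmp2, Thbs1 and Igf2r still passed, at 1.11, 0.99 and 0.70. Under that setting Plau was 0.00158 and Dcn -0.04, so neither kept its rise.

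Of 10 measured genes on the list of extracellular antagonists and co-receptors, 2 were higher and 1 lower (30%, beside 19.4% over all genes), with a median difference of 0.01. The 1 lower gene, Pcsk6, is neither an antagonist nor a co-receptor. Cd109, a membrane-anchored co-receptor that lowers TGF-beta signalling, rose 2.01-fold, from -2.70 to -2.59 in wild-type to -1.90 to -1.53 in R175Q (difference 1.01 ± 0.08, SE; adjusted p = 2.89e-05), and still passed with the fitted background at 0.64. Pcsk6, a proprotein convertase, fell 1.20-fold (-0.27 ± 0.05, SE; adjusted p = 0.00725), and with the fitted background it was -0.18 (adjusted p = 0.659). Htra1, a secreted serine protease, was 1.22-fold higher (0.28 ± 0.07, SE; adjusted p = 0.0206), a call lost without R175Q 1, R175Q 3 or R175Q 4, with an adjusted p of up to 0.0568. That call was also lost with slide or scan day as a fixed block, with the deposited table, with scaling between arrays, with Cy3 alone and with the fitted background, where the difference was 0.11 (adjusted p = 0.600).

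Of 35 measured regulators of the receptors and Smads, 4 were higher and 1 lower (14.3%, below the 19.4% over all genes), and the median difference was 0.03. Dab2, an endocytic adaptor that links TGF-beta receptors to Smads, rose 2.98-fold, from -4.38 to -4.28 in wild-type to -2.98 to -2.64 in R175Q (difference 1.58 ± 0.08, SE; adjusted p = 1.88e-06), and was 0.95 with the fitted background (adjusted p = 0.0388). The other called genes of this list changed less. Hipk2, a nuclear kinase, fell 1.28-fold (adjusted p = 0.00490). Ppp2r2a, a phosphatase subunit that binds the type I receptor, Wwp2, a ubiquitin ligase of Smads, and Sp1, a transcription factor that works with Smads, rose 1.17- to 1.18-fold. All 3 lost their call with the fitted background, at adjusted p of 0.0504, 0.0959 and 0.0856, and with Cy3 alone. Wwp2 also lost it with slide or scan day as a fixed block. Sp1 lost its call without wild-type 1, wild-type 4, R175Q 3 or R175Q 4, with an adjusted p of up to 0.0724.

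Of 37 measured genes on a list of transcripts described as commonly induced by TGF-beta, 10 were higher and 4 lower, with a median difference of 0.07. The list includes Id1, Id2, Id3 and Id4, which did not pass the threshold. Whether TGF-beta induces each listed gene in these cells was not tested. The called share was 37.8%, beside 19.4% over all genes, of which 9.69% were higher and 9.75% lower. Ccn2, the matricellular growth factor CTGF, fell 1.80-fold, from -1.05 to -0.57 in wild-type to -1.87 to -1.46 in R175Q (difference -0.85 ± 0.12, SE; adjusted p = 0.00101). Cdkn2b, the cell cycle inhibitor p15, fell 1.68-fold (-0.74 ± 0.11, SE; adjusted p = 0.00102), and Pdgfb fell 1.25-fold (-0.32 ± 0.06, SE; adjusted p = 0.00372). These 3 passed with the fitted background as well, at -0.86, -0.75 and -0.31.

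Snai1, a transcriptional repressor of E-cadherin, rose 1.34-fold (0.42 ± 0.06, SE; adjusted p = 0.00122). Col1a2, a chain of type I collagen, rose 1.50-fold (0.59 ± 0.09, SE; adjusted p = 0.00155) at ratios far below the reference, and Nedd9, a focal adhesion scaffold, rose 1.32-fold (0.40 ± 0.07, SE; adjusted p = 0.00467). With the fitted background Snai1 still passed, at 0.37 (adjusted p = 0.0401), while Col1a2 was 0.09 (adjusted p = 0.899) and Nedd9 0.34 (adjusted p = 0.0518). The 14 calls of this list became 8 without R175Q 3 and 9 without wild-type 1, wild-type 4 or R175Q 4. The number of calls over all genes also changed when 1 array was left out.

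**Figure D4:**
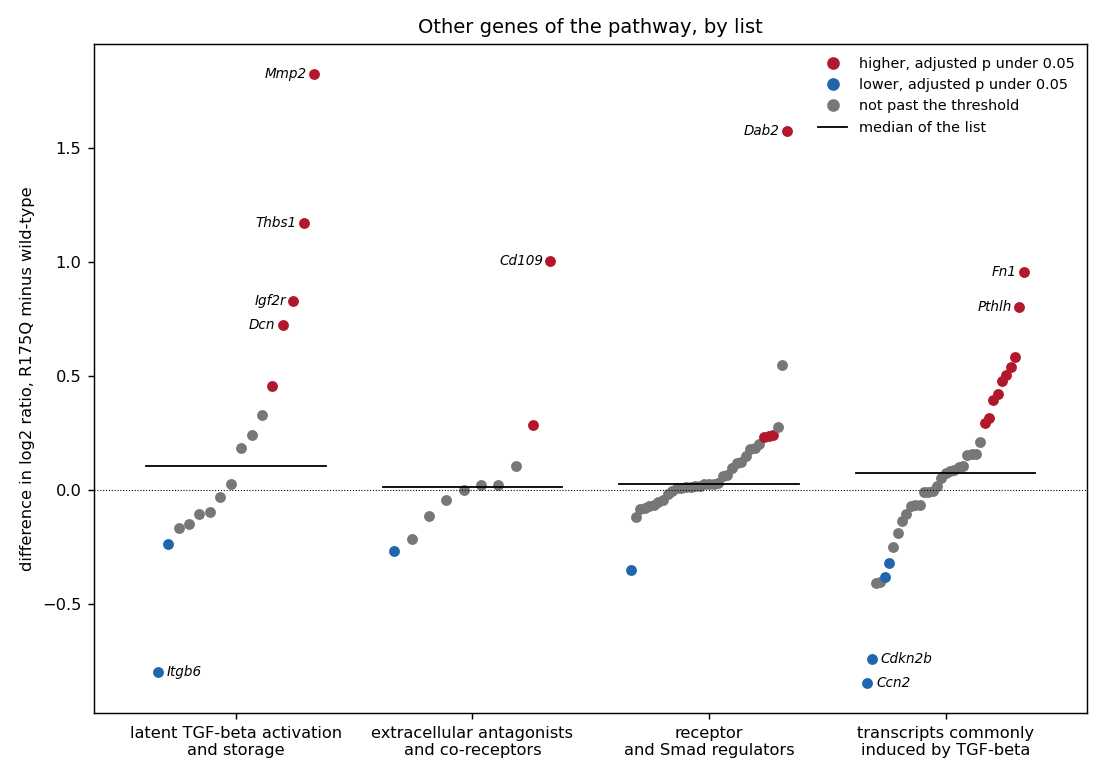
Difference in log2 ratio, R175Q minus wild-type (vertical axis), of every measured gene of the 4 lists, in order of size within each list, red or blue where the adjusted p was under 0.05; the black line is the list's median and called genes beyond 0.7 in either direction are named. The medians lie between 0.01 and 0.11 while single genes reach 1.82 for Mmp2 and -0.85 for Ccn2; the rise of Dcn was lost, at -0.04, with the fitted background.

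Some markers of other cell types moved beside these genes. Of 8 measured markers of fibroblasts and pericytes, of 11 listed, 4 were higher in R175Q (Pdgfrb by 1.19, Dcn by 0.73, Col1a2 by 0.59 and Col3a1 by 0.39 on the log2 scale) and 0 lower. Their mean log2 ratio was -5.94 to -5.69 in R175Q and -6.39 to -6.19 in wild-type, and Lum, Postn and Fap were well above background on 0 arrays. None of the 4 fibroblast and pericyte genes passed with the fitted background: Pdgfrb was 0.66 (adjusted p = 0.0806), Col1a2 0.09, Dcn -0.04 and Col3a1 -0.28 (adjusted p = 0.776). Dcn and Col1a2 also stand in the pathway lists above. Of 3 measured endothelial markers 1 was higher, Vwf by 0.85. The other 2 had the opposite sign and did not pass in limma's test, Pecam1 at -0.14 (adjusted p = 0.305) and Kdr at -0.05 (adjusted p = 0.668). Cdh5, Tie1, Tek, Emcn and Cldn5 were above background on 0 arrays. Vwf was 0.23 (adjusted p = 0.461) with the fitted background. Of 10 myeloid markers 1 was lower, Mrc1, at -0.59, which was -0.12 (adjusted p = 0.904) with the fitted background, and of 4 lymphocyte and 4 basal markers 0 passed in limma's test, 0 also at an unadjusted p under 0.05. Of 5 adipocyte markers only Fabp4 was measured, and it was lower, at -0.997, and at -0.72 (adjusted p = 0.0307) with the fitted background. The part of these markers in the results for Tgfbr3, Tgfbi, Tgfb1i1, Tgfb3, Ltbp2 and the pathway lists was not tested. In RNA from a whole culture, a change in the share of cells with a marker and a change in its RNA per cell cannot be told apart.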

How the data were processed

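Gene expression was measured on 8 two-colour arrays, 4 of R175Q and 4 of wild-type cells, grouped by the labels. Per the labels' protocols, each sample started from 1 to 2.5 ng of total RNA, amplified linearly in 2 rounds, and 5 µg of the product carried Cy3; the Cy5 reference is called mouse in 1 field and human in another, and the cultured cells are called microdissected, which could not be settled. No dyes were swapped, so a dye effect common to all arrays cancels in the comparison.

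The scanner software, Agilent Feature Extraction 9.5.3.1 per the file headers, wrote each spot's mean intensity, its local background's median intensity and, after its own dye normalization, a log10 ratio of Cy5 over Cy3. The authors deposited a value table of log2 ratios, as judged from its values: turned to Cy3 over Cy5, it correlated with the scanner's ratio at 0.902 to 0.941 across probes, which are not independent. Its column medians were 0.0524 to 0.0617; its scaling and centring are not stated. It was used as an alternative only.

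Local background was subtracted from the mean intensity, and normexp (offset 50) took the remaining background from each array's 153 negative control spots; loess followed within arrays (limma 3.58.1, R 4.3.3). Spots of a probe were averaged, leaving out spots marked as outliers. A probe was kept if 4 or more of the 8 arrays had it well above background in Cy3, and a gene's brightest probe was used, giving 17316 genes. The test was lmFit and eBayes, two-sided, adjusted by Benjamini-Hochberg over all genes at 0.05; SE is that of the difference. The functions were tested on simulated data. Symbols came from the files or, for 26761 of 28389 RefSeq probes, from the GRCm38.p6 table; coordinates are the files' (mm9), and probes were not placed in exons or UTRs.

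Values in every array are given for members past the threshold and for Tgfb1 to Tgfb3, Tgfbr1 to Tgfbr3, Smad2, Smad3, Smad4 and Smad7, and up to 6 called genes with the lowest p are named per pathway list; array values of Gdf15, Ski and 2 second probes were added after they were seen. The members, the lists and the control-spot background were chosen with earlier results of these data known. 28 alternative settings were run, 2 of them (scan day as a block, and R175Q 3 and wild-type 3 left out together) added after seeing the data.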

Additional observations from a re-analysis of the deposited data

Results flagged for a closer look

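In 7 of the 78 sets of 4 arrays that measured a member, 1 array lay far from the other 3: its gap to the nearest, divided by the range, was above Dixon's 95% critical value for 4 samples. Chance gives about 5% of such sets. The array wild-type 3 was concerned in 3 of them, each time as the highest wild-type array: Acvr2b at a log2 ratio of -1.03 (nearest -1.34), Ltbp3 at -0.487 (nearest -0.769) and Ltbp4 at -1.89 (nearest -2.21). Without wild-type 3 the difference of Ltbp3 was -0.26 and kept its call. Tgfb1i1 was -5.47 in wild-type 1 (nearest -5.44), a small step in a tight group. Among R175Q arrays, Tgfbr2 was -1.36 in R175Q 3 (nearest -1.19), Pmepa1 1.62 in R175Q 2 (nearest 1.71) and Smad5 -0.359 in R175Q 4 (nearest -0.456).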

How the results depend on the processing

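Results were recomputed under 28 settings. With the background fitted to all spots, 464 genes were higher and 412 lower (main 1678 and 1688), 0 members higher and 2 lower (4 and 4 at limma's unadjusted p under 0.05), and 11 pathway genes called (main 29); 875 of those 876 calls were also made with the control-spot background. With slide as a fixed block added to that, 3 genes were higher and 3 lower, with 0 members and 0 pathway genes. At limma's unadjusted p under 0.05, 2 members were higher and 2 lower there, and 16 and 6 pathway genes. The share of all genes at an unadjusted p under 0.05 was not counted in either setting. The unadjusted counts are therefore not a result about the members or the lists. In those 2 settings Ltbp2 was -0.235 and -0.238, Tgfb1i1 -0.313 and -0.333, and Tgfbr1 0.101 and 0.0942; Dcn was -0.0419 in the first. With array weights, 3143 genes were higher and 3606 lower, 11 members higher and 8 lower, and 44 pathway genes were called. With every probe on its own, 6 member probes were lower, since Ltbp3, Smad3 and Tgfbr2 have further probes. Why these settings differ was otherwise not tested. All other settings kept the 5 counts within 1.5 times.

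Leaving out 1 array at a time, genes higher were 1204 to 2054, genes lower 1156 to 2043, members higher 6 to 8, members lower 3 to 3, and pathway genes called 20 to 33; all 9 called members kept their call. Tgfb1 lost its call with slide as a fixed block, Tgfb2 with the mean of its probes, and Ltbp2 with scaling between arrays. Tgfbr1, Smad7 and Tgfbr2, all under the threshold, changed sign. Tgfbr1 was 0.0301 with the scanner's ratio, 0.0301 with median centring, 0.0257 with scaling between arrays, 0.0740 with the mean of probes, and 0.191 and 0.0552 with its other probes, and between -0.115 and 0.0672 leaving out 1 array. Smad7 was -0.0177 with no background correction, -0.0401 with Cy3 alone, -0.0657 with array weights, and between -0.0639 and 0.168 leaving out 1 array. Tgfbr2 was -0.0483 with the mean of probes and -0.221 with its other probe. Of the other members under the threshold, Acvr2a, Acvr2b, Acvrl1, Gdf1, Gdf3, Gdf11, Gdf15, Ltbp1, Smad6 and Smurf2 also changed sign under at least 1 setting.

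Replicate numbers in the titles were not used to pair the arrays in the main fit. The correlations of same-numbered arrays' deviations from their group means were 0.313, 0.0175, 0.562 and 0.113 for numbers 1 to 4. R175Q 3 and wild-type 3 were each other's best match. R175Q 1 matched wild-type 1 best, but wild-type 1 matched R175Q 2 best. For numbers 2 and 4 no array matched its namesake best. R175Q 3 and wild-type 3 also shared slide 3, and wild-type 1 and R175Q 2 shared slide 2. Wild-type 2, also on slide 3, correlated with R175Q 3 at -0.195. For number 3, a shared slide and a shared number cannot be told apart. These values do not settle whether the numbers mark pairs. With the replicate block, 2037 genes were higher and 1971 lower, 9 members higher and 3 lower, and 36 pathway genes were called. With the highest pair, R175Q 3 and wild-type 3, left out together, 7 members were higher and 3 lower. The share over all genes is not given for that setting, so this count is not a result about the members. Ltbp2 and Tgfb1i1, whose sign turned, were the called members lowest against the reference; the part of their signal over background in this was not tested.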
